A study of Homo sapiens with 4 samples.

Results

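The integrated stress response transcription factors described here are 7 genes, taken by name: DDIT3, ATF3, ATF4, ATF5, TRIB3, CEBPB and CEBPG. All 7 were found among the 18665 named genes of the array, on 10 probes, and all 10 probes are reported. The cells were CP70sps, spheres obtained from the Cp70 ovarian cancer line by exclusion of the dye Hoechst and cultured in low-attachment plates without serum but with bFGF, EGF and insulin. The groups were cells exposed to 3 µM niclosamide for 0, 2, 4 and 6 h, with 1 Illumina bead array of total RNA per time, so 0 h is the only untreated array and no array here followed untreated cells to a later time. As each time has a single array, no difference between times can be given a replicate error or a p-value, and 4 arrays set the precision. Niclosamide is an anthelmintic drug that uncouples mitochondrial respiration.

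In the integrated stress response, kinases that sense amino acid shortage, unfolded protein, haem shortage, double-stranded RNA or mitochondrial stress phosphorylate the translation factor eIF2 alpha. General translation falls, while mRNAs with upstream open reading frames, ATF4 and ATF5 among them, are translated better, so the mRNA level of either gene does not measure its protein. ATF4 is a bZIP transcription factor that induces DDIT3 (encoding CHOP), ATF3, TRIB3, CEBPB, CEBPG and genes of amino acid supply. CHOP and ATF4 pair with C/EBP proteins, and the pseudokinase TRIB3 binds and restrains ATF4 and CHOP, closing a feedback loop.

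Promoter sequences are shown for DDIT3, which differed most of the 7, and for CEBPG and CHAC1. CEBPG is the only one of the 7 with the exact C/EBP-ATF response element sequence TGATGCAA in the windows searched. CHAC1 is an ATF4 and CHOP target whose time course lay nearest to that of DDIT3. The sequences are from RefSeq on GRCh38.p14, 5′ to 3′ on the gene's strand, and hold the 250 bases before an annotated start. Capitals mark a match to a motif named in the next paragraph. DDIT3 lies on the minus strand at chr12:57520515-57520764, CEBPG on the plus strand at chr19:33373863-33374112 and CHAC1 on the plus strand at chr15:40953221-40953470.
DDIT3: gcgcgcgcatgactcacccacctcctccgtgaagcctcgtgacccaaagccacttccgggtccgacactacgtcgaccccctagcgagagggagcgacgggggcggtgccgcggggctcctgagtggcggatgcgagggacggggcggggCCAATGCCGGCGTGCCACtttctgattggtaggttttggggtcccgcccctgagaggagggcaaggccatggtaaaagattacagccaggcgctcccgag
CEBPG: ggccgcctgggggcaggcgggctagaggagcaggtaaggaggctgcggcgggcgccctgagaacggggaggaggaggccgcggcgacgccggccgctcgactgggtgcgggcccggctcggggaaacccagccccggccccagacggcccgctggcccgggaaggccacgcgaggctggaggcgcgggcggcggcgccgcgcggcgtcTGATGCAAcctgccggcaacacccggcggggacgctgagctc
CHAC1: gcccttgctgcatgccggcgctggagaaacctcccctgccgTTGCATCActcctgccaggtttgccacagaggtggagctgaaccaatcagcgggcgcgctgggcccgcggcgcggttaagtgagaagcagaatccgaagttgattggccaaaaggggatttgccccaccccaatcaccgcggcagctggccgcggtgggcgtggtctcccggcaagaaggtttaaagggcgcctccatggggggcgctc

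Motifs were searched on both strands of 35116 windows of 300 bases, which include 50 bases after the start, and 16 of these windows belong to the 7 genes. The C/EBP-ATF response element TGATGCAA, to which ATF4 with a C/EBP partner binds, was present in 0.866% of all windows and in 1 of the 16, at position -42 of the printed CEBPG start. CHAC1 holds it on the opposite strand at position -209. Of 28 listed ATF4 and CHOP target genes with a window, 5 hold it (CHAC1, FGF21, HERPUD1, AARS1 and JDP2), against 1.08% of all 27305 symbols. The list was chosen as known targets, so this share is not a result of these arrays. Of the 5, CHAC1 and AARS1 alone were measured at both 0 h and 6 h. The endoplasmic reticulum stress element, CCAAT and CCACG with 9 bases of any kind between them, matched 0 of the 16 windows and 0.0769% of all. Without its last base it matched both DDIT3 windows, which overlap, at positions -100 and -97 of their starts, and 0.316% of all windows. The cyclic AMP response element TGACGTCA (1.85% of windows) and its variant TGACGTAA (0.416%) matched 0 of the 16. Every match to the full stress element is also a match to the shortened one. A match is a stretch of letters in the window and not a measured binding site. Elements that differ from these sequences or lie outside the windows were not searched.

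Of the 10 probes, 9 were detected on all 4 arrays, where detection means a deposited detection p under 0.01 against the negative controls of the array. The remaining probe, ILMN_1661109, 1 of a pair for ATF3, read 55.6, 49.3, 51.1 and 50.8 intensity units at 0, 2, 4 and 6 h and was not detected on any array. ATF4 has 3 probes, ATF3 has a pair and the other 5 genes have 1 each. Each gene is represented by its brightest detected probe, and values called log2 are background-corrected, quantile-normalized log2 intensities. Levels are compared between arrays of 1 probe and never between probes.

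Across arrays, between 28.3% and 29.6% of the 48803 probes were detected, the median signal lay between 62.4 and 66.0 units, and 9771 genes were detected on at least 1 array. Of the tumour-initiating cell markers listed, 2 of 10 were detected, namely ALDH1A1 and LIN28B, whereas PROM1, CD44, KIT and the Hoechst-exporting transporter gene ABCG2 were not. Of the ovarian and epithelial markers, EPCAM, KRT18 and KRT19 were detected on 4 arrays and KRT8 on 1, whereas PAX8, WT1, MUC16, KRT7 and CDH1 were not. Of 5 endothelial and 4 erythroid markers 0 were detected, of 5 leukocyte markers CD68 alone, and of 5 fibroblast markers COL1A2, DCN and LUM. The part of changes in cell makeup in the results was not tested, and less RNA per cell cannot be told apart from fewer cells in bulk RNA.

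The factors differed in how far they stood from 0 h on each array. DDIT3 and ATF3 stood at log2 differences of 0.72 and 0.58 at 2 h, where 4.6% and 8.2% of genes stood higher. At 4 h CEBPG and CEBPB stood at 0.45 and 0.27, where 8.9% and 20.4% of genes stood higher. TRIB3 stood at 0.82 at 6 h, where 3.8% stood higher. ATF4 stayed within 0.26 log2 units of 0 h on its brightest probe. ATF5 was lower at 2 h and came back toward its 0 h level. With 1 array per time, an order of onset was not tested. At 6 h, 2 of the 7 genes were at least 2-fold above 0 h, where 1.77% of 9044 genes detected on both arrays were, and 0 were at least 2-fold lower, where 1.93% were. With each array scaled to 1 median in place of quantile normalization, the genes past 2-fold at 6 h were 273 higher and 106 lower, against 160 and 175 with quantile normalization. At 1.5-fold, 5 of 7 were higher, against 9.44% of genes, and 0 lower, against 9.8%. The median of the 7 log2 differences for 6 h minus 0 h was 0.82 and that of all genes -0.02. The genes were picked with earlier results of these arrays known, so these counts describe them and carry no test.

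**Figure D1:**
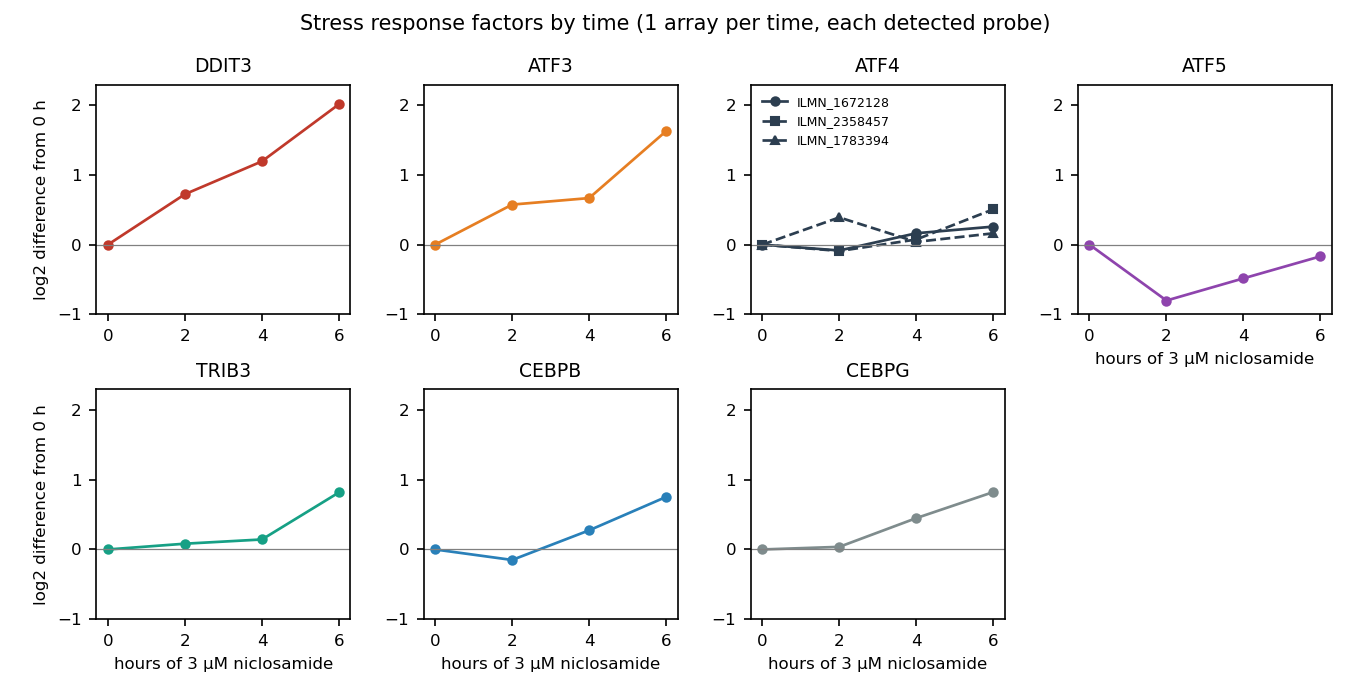
Log2 difference from 0 h (vertical axis) against hours of 3 µM niclosamide (horizontal axis) for each detected probe of the 7 genes, 1 array per time and no error bars. DDIT3 reaches 2.02 and ATF3 1.63 at 6 h, ATF5 is at -0.80 at 2 h, and the 3 ATF4 probes, named in the legend, end between 0.16 and 0.51.

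DDIT3 encodes CHOP, a bZIP factor tied to the later, death-promoting arm of the response. Its probe read 1410, 2333, 3424 and 5913 intensity units at 0, 2, 4 and 6 h, higher on every array than on the one before. After normalization the fold of DDIT3 over 0 h was 1.65 on the 2 h array, 2.29 on the 4 h array and 4.05 on the 6 h array. Counted from the top of the log2 differences, this put DDIT3 in place 419 of 9120 genes for 2 h, place 6 of 9217 for 4 h and place 2 of 9044 for 6 h. At 4 h DDIT3 was the 1 gene of the 7 past 2-fold, where 0.217% of all genes were higher by that much and 0.423% lower. ATF3 joined it at 1.5-fold, against 4.25% of genes higher and 4.58% lower.

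ATF3 encodes a stress-induced bZIP factor of the ATF family that acts mostly as a repressor when it forms homodimers. The detected ATF3 probe read 822, 1229, 1419 and 2616 units at 0, 2, 4 and 6 h, with its widest gap between 4 and 6 h. Its fold over 0 h was 1.49 on the 2 h array, 1.59 on the 4 h array and 3.10 on the 6 h array. No other detected probe checks ATF3 or DDIT3.

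ATF4, the central factor of the network, differed little as mRNA on its brightest probe, and by more at 6 h on a second probe. Its brightest probe read 23341.5, 21311 and 24735 units at 0, 2 and 4 h and 27840 at 6 h, which is log2 differences from 0 h of -0.08, 0.16 and 0.26. A second probe (ILMN_2358457) read 1946, 1802, 2174 and 2794 units and stood at -0.09, 0.07 and 0.51. A dim probe (ILMN_1783394) read 155, 195, 170 and 182 units, close to the lowest detected signals of the arrays (107 to 121 units), and stood at 0.39, 0.04 and 0.16. All 3 probes were above 0 h at 6 h, and they did not share a direction at 2 h. For 6 h minus 0 h, the second probe alone exceeded the robust standard deviation over all genes (0.421).

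ATF5, a relative of ATF4 that is likewise translated under stress and that directs a mitochondrial unfolded protein response, ran the other way at first. Its probe read 2124, 1206, 1628 and 1930 units at 0, 2, 4 and 6 h. The log2 differences from 0 h were -0.80, -0.48 and -0.17, and at 2 h ATF5 was 1.74 times lower, at place 293 of 9120 from the bottom. At 2 h, 1 gene of the 7 (ATF5) was at least 1.5-fold lower, where 7.99% of all genes were, and 1 (DDIT3) at least 1.5-fold higher, where 7.86% were. By 2-fold, 0 of the 7 were past the threshold in either direction at 2 h, against 1.35% of genes higher and 1.29% lower.

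TRIB3, the pseudokinase that restrains ATF4 and CHOP, differed late. Its probe read 3423, 3468 and 3906 units at 0, 2 and 4 h and 6053 at 6 h, so that the 6 h array alone stood apart. Set against 0 h, the folds were 1.06 (2 h), 1.10 (4 h) and 1.76 (6 h). The step after 4 h made up 82.5% of the 6 h log2 difference.

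CEBPB and CEBPG encode bZIP partners of ATF4 and CHOP, and CEBPG is known to raise amino acid and antioxidant genes together with ATF4. CEBPB read 5900, 5109, 7020 and 9906 units at 0, 2, 4 and 6 h, lowest at 2 h. CEBPB stood at log2 differences from 0 h of -0.15, 0.27 and 0.75. CEBPG read 1898, 1913, 2704 and 3387 units, level at 2 h and higher on each of the later arrays, with log2 differences of 0.04, 0.45 and 0.82.

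The steps between neighbouring arrays come from the same 4 values per gene as the differences from 0 h, so they are not a separate check of those. From 0 to 2 h the 7 genes had differences between -0.80 and 0.72, with 4 of 7 above 0, or 5 where the probes of a gene are averaged, and 47.5% of all genes above 0. From 2 to 4 h all 7 were above 0, where 54.1% of all genes were, between 0.06 for TRIB3 and 0.47 for DDIT3. In that step 0 reached 1.5-fold, where 2.12% of 9307 genes were higher by that much and 2.8% lower, or 2-fold, where 0.0967% were higher and 0.258% lower. From 4 to 6 h all 7 were again above 0, where 46.6% of all genes were, and ATF3 at 0.96, DDIT3 at 0.82 and TRIB3 at 0.68 were the 3 past 1.5-fold, against 1.86% of 9256 genes, while 0 were lower by that much, against 1.21%. By 2-fold 0 were past the threshold, against 0.119% of genes higher and 0.0324% lower. DDIT3, ATF3, TRIB3 and CEBPG were higher at each time than at the time before, a pattern seen in 6.04% of the 9001 genes detected on all 4 arrays. This pattern goes by sign alone. The 2 h minus 0 h steps of TRIB3 (0.08) and CEBPG (0.04) lay within the robust standard deviation over all genes (0.386). So did the 4 h minus 2 h steps of ATF3 (0.09) and TRIB3 (0.06), where it was 0.273.

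**Figure D2:**
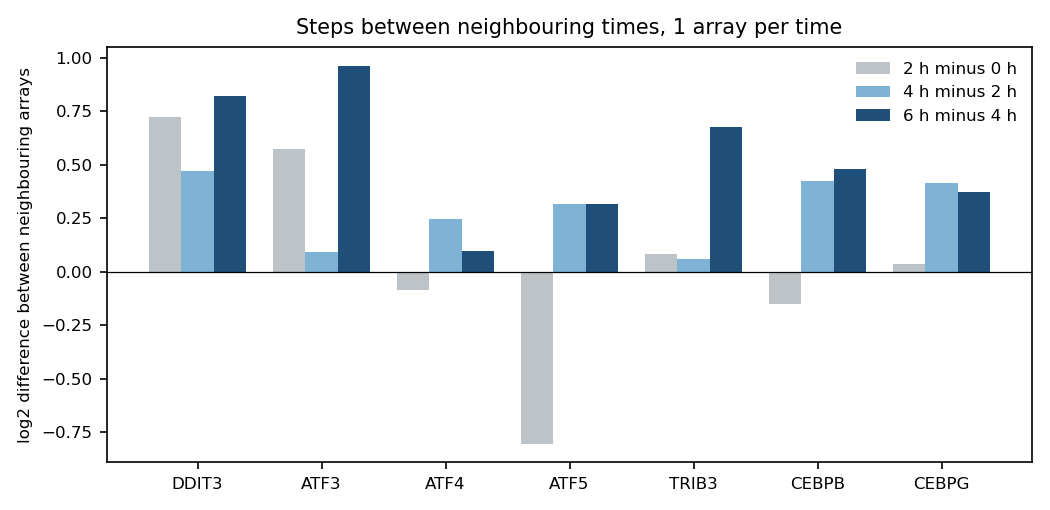
Log2 difference between neighbouring arrays (vertical axis, bars from 0) for each of the 7 genes, with 1 bar each for 2 h minus 0 h, 4 h minus 2 h and 6 h minus 4 h and 1 array per time. ATF5 has its negative bar at 2 h (-0.80), and ATF3 and TRIB3 have their tallest bars at 6 h minus 4 h (0.96 and 0.68).

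The 6 h array was also set against the 2 h array, a comparison that leaves out the 0 h array. All 7 genes were higher at 6 h than at 2 h, 6 of them by at least 1.5-fold, where 1.52% of 9202 genes were, and 0 were lower by that much, where 1.34% were. DDIT3 at 2.45-fold and ATF3 at 2.08-fold passed 2-fold, where 0.152% of genes were higher by that much and 0.141% lower. CEBPB followed at 1.87-fold, CEBPG at 1.73-fold, TRIB3 at 1.67-fold and ATF5 at 1.55-fold, and ATF4 stood at 1.27-fold. Their places from the top ran from 2 for DDIT3, 11 for ATF3, 21 for CEBPB, 44 for CEBPG and 60 for TRIB3 to 105 for ATF5 and 697 for ATF4. The second ATF4 probe read a log2 difference of 0.60, which is past 1.5-fold, and the dim one -0.23. The count of 6 therefore rests on the brightest ATF4 probe. The robust spread over all genes was 0.216 for 6 h minus 2 h and 0.421 for 6 h minus 0 h, so a log2 difference of a given size stands further out for 6 h minus 2 h.

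**Figure D3:**
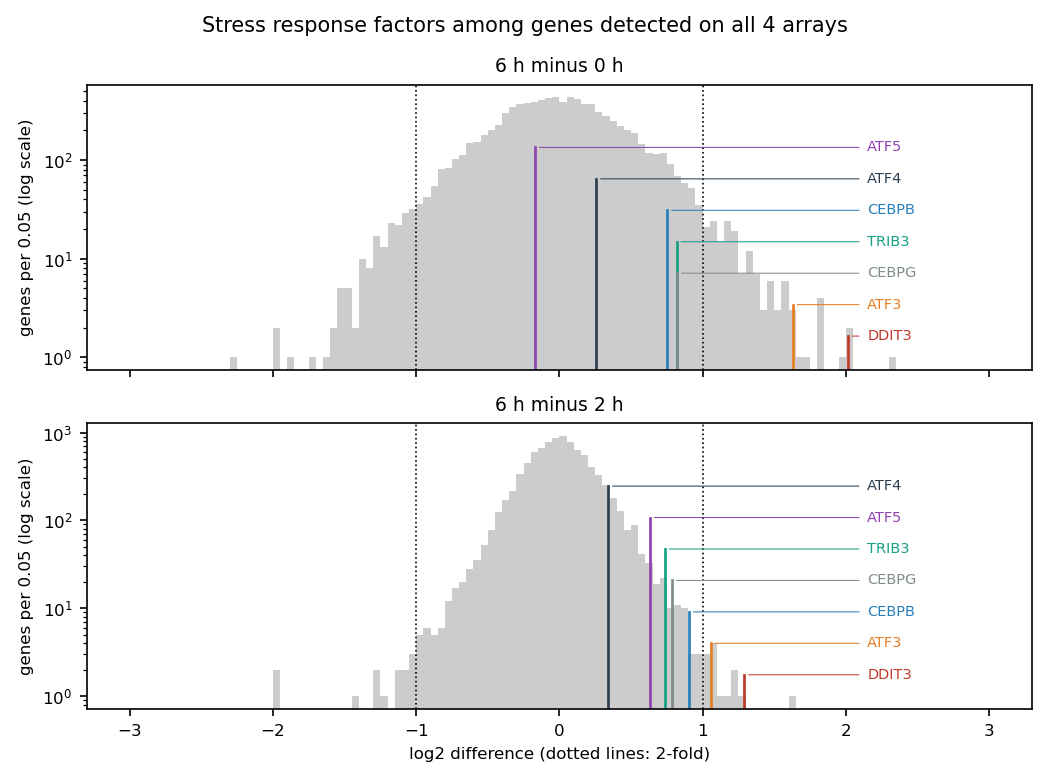
Number of genes per 0.05 log2 units (vertical axis, log scale) by log2 difference (horizontal axis) for 6 h minus 0 h (upper panel) and 6 h minus 2 h (lower panel), over the 9001 genes detected on all 4 arrays, with coloured lines at the 7 genes and dotted lines at 2-fold. For 6 h minus 2 h all 7 lie right of 0, from 0.34 for ATF4 to 1.29 for DDIT3, and for 6 h minus 0 h ATF5 lies at -0.17.

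A linear trend over hours was the 1 model fitted to all 4 arrays. The slope of DDIT3, which rose, was 0.33 log2 units per hour with a standard error of 0.0354 (limma, adjusted p = 0.0109 over 9771 genes), with 0.0205% of genes called as rising and 0.0102% as falling. The other 6 genes did not pass. Without adjustment, 6 of the 7 had a rising slope at p under 0.05, where 7.1% of all genes did, and 0 a falling one, where 7.2% did. ATF3 had a slope of 0.25 per hour (adjusted p = 0.114), CEBPG 0.14 (0.197), CEBPB 0.13 (0.197), TRIB3 0.13 (0.223), ATF4 0.05 (0.321) and ATF5 -0.01 (0.953). The fit has 2 residual degrees of freedom, and its variance prior, drawn from all genes on the same 4 arrays, has 9.59. Its standard errors and p-values mix departure from a line with array spread and do not measure spread between replicates. Any bend in a time course counts as error. A late difference such as that of TRIB3 or a dip such as that of ATF5 is therefore not favoured by the fit. Without the intensity trend in the variance the adjusted p for DDIT3 was 0.0593, which ends the call, and over all 7 alternatives on 4 arrays it ranged from 0.00054 to 0.0593. With arrays scaled to 1 median, ATF3 passed too (adjusted p = 0.0233). Without the 6 h array the adjusted p for DDIT3 was 1 with a slope of 0.30 per hour.

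The genes whose differences from 0 h lay nearest to those of DDIT3 and ATF3 were found by Euclidean distance over the 3 later times among 9000 genes detected on all 4 arrays. CHAC1, which encodes a glutathione-degrading enzyme, was nearest to DDIT3 at a distance of 0.306, with log2 differences of 0.70, 1.24 and 2.32 at 2, 4 and 6 h. UAP1L1 (0.510) and WDR81 (0.554) came next and were further off. SESN2, the gene of a leucine-sensing restraint on mTORC1, was nearest to ATF3 at 0.234, with 0.78, 0.62 and 1.52. KLHL21 followed at 0.275, and AMH, the gene of anti-Müllerian hormone, at 0.347. Each of these 6 genes has 1 detected probe, and all distances share the 0 h array. The distance also depends on the size of the differences. DDIT3 and ATF3 held places 2 and 13 of 9044 from the top for 6 h minus 0 h, so few genes could lie near them.

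Most of the measured genes known as ATF4 and CHOP targets were higher at 6 h than at 2 h or 0 h, though fewer passed 1.5-fold. Of 35 listed, 31 were measured on both the 6 h and 2 h arrays, and 27 of these were above 0 for 6 h minus 2 h, where 50.2% of all genes were. By 1.5-fold, 10 were higher and 0 lower, against 1.52% and 1.34% of all genes, with a median of 0.49 against 0.00 for all genes. CHAC1 (1.62), INHBE (1.17), which encodes a secreted inhibin subunit, and PPP1R15A (1.08), which encodes the phosphatase regulator that reverses eIF2 alpha phosphorylation, were the 3 past 2-fold, against 0.152% of all genes. For 6 h minus 0 h, 11 of 31 were at least 1.5-fold higher and 1 lower, against 9.44% and 9.8% of all genes, with a median of 0.41 against -0.02. SESN2 and GDF15, the gene of a secreted stress cytokine, stood at 1.52 and 1.20. Of the 31 genes, 27 were above 0 for 6 h minus 0 h. The 1 gene at least 1.5-fold lower was VEGFA, an angiogenic growth factor gene that also answers to hypoxia. Its brightest probe stood at -1.54 and another probe at -0.82. VEGFA was at -1.47 already at 2 h and differed by -0.07 for 6 h minus 2 h. CHAC1 was the 1 gene of this list called by the trend fit (slope 0.37 per hour, limma adjusted p = 0.0123).

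**Figure D4:**
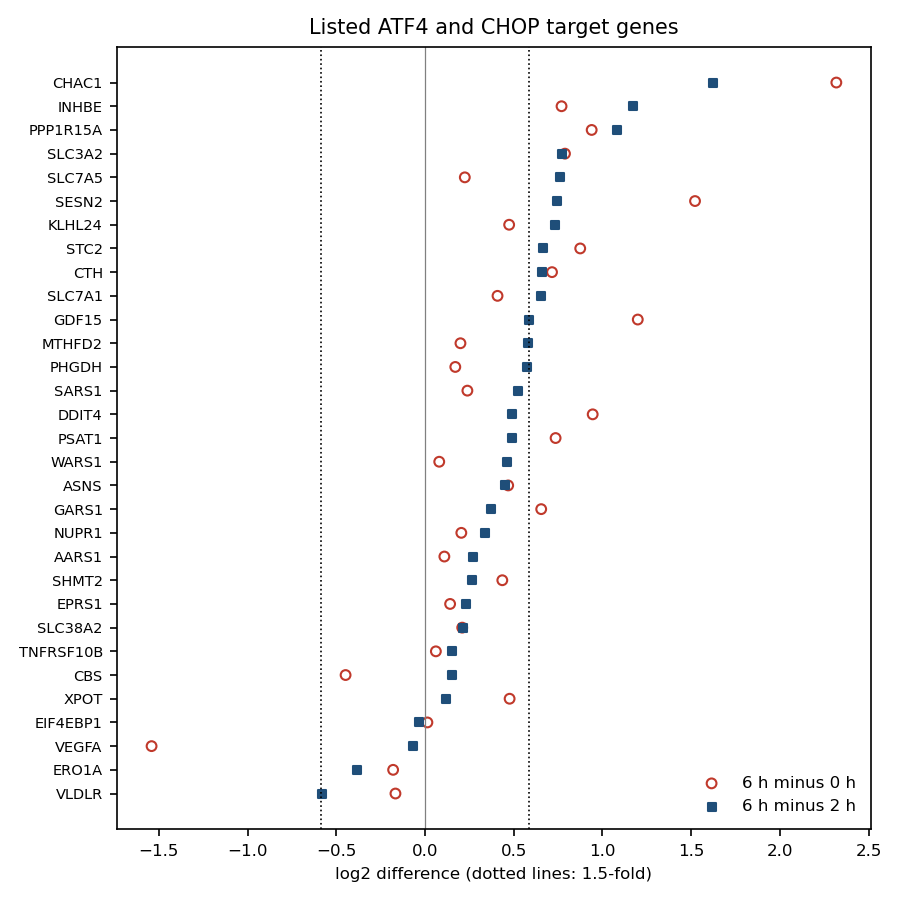
Log2 difference (horizontal axis) for 6 h minus 0 h (open circles) and 6 h minus 2 h (filled squares) of the 31 listed ATF4 and CHOP target genes measured on these arrays (vertical axis, ordered by 6 h minus 2 h), with dotted lines at 1.5-fold. CHAC1 is at 2.32 and 1.62, and VEGFA at -1.54 and -0.07.

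A list of genes upstream of ATF4 held the eIF2 alpha kinases and phosphatase subunits, the mitochondrial stress relays OMA1 and DELE1, and subunits of eIF2 and its exchange factor. Of its 13 measured genes, 2 were at least 1.5-fold higher for 6 h minus 0 h, where 9.44% of all genes were, namely PPP1R15A at 0.94 and EIF2AK3, the gene of the endoplasmic reticulum kinase PERK, at 0.62. EIF2AK2, the gene of the double-stranded RNA sensor PKR, was the 1 lower by that much, at -0.62, where 9.8% of all genes were lower. EIF2B5, which encodes a subunit of the exchange factor of eIF2, stood at -0.43. The list median was -0.07 for 6 h minus 0 h and 0.07 for 6 h minus 2 h. For 6 h minus 2 h PPP1R15A alone was past 1.5-fold (1.52% of all genes were higher by that much). PPP1R15B, the constitutive counterpart of PPP1R15A, stood at 0.52 in that comparison, with a second probe at 0.35. The trend fit called 0 of the 13.

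Relatives of the 7 factors did not share 1 direction. Of 7 other ATF and CREB genes detected, 6 were measured at both 6 h and 0 h, and XBP1 and CREBRF, both tied to the unfolded protein response, stood past 2-fold above 0 h at 6 h (1.21 and 1.10, with second probes at 1.57 and 1.45), where 1.77% of all genes did. ATF2 stood at 0.22 and ATF6, an endoplasmic reticulum stress sensor, at -0.06. In the C/EBP family CEBPA was 1.07 above 0 h at 2 h and 0.88 at 6 h, whereas CEBPD was 0.78 above at 2 h and then at -0.36 and -0.30, which is -1.08 for 6 h minus 2 h. The TRIB3 relatives TRIB1 and TRIB2 stood at -0.66 and -0.08 at 6 h, and at -0.64 and -0.40 for 6 h minus 2 h. The 5 other C/EBP and tribbles genes had a median of -0.40 for 6 h minus 2 h, with 0 at least 1.5-fold higher and 2 lower, against 1.52% and 1.34% of all genes. The trend fit called 0 genes of both lists.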

How the data were processed

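Each probe of each array has a deposited, non-normalized intensity. BeadStudio is the tool named in the submitters' processing notes, and its settings are not given in the sources used here. Each intensity has a deposited detection p-value, which lies on multiples of the inverse of 759. The authors' processed intensity values equal a linear quantile normalization of the non-normalized ones within 1.46% at every probe and served as an alternative.

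Background correction and normalization used limma 3.58.1 under R 4.3.3 (neqc: normexp background from the detection p-values, offset 16, quantile normalization of log2 values). Probes were named by the platform annotation and RefSeq symbols. Of 48803 probes, 27578 had 1 symbol, 13 had several and 21212 were unnamed here. A gene took its brightest probe detected (p under 0.01) on at least 1 array. Later times were set against earlier ones by log2 difference, counted at 2-fold and 1.5-fold where both arrays detected the probe, with no test. The trend used lmFit on hours and eBayes with a variance prior that follows intensity. Its p-values are 2-sided, with calls at 0.05 after Benjamini-Hochberg adjustment. The fit was tested on simulated data with straight slopes, independent noise and a variance not tied to intensity. That test does not check bends, array-wide effects or the intensity trend of the prior.

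Named were the 7 genes, per list the 4 genes of largest absolute difference for 6 h minus 0 h and the 3 for 6 h minus 2 h, and the 3 nearest genes of each of the 7 that differed by at least 1 log2 unit at 6 h. The genes, lists (ATF4 and CHOP targets, eIF2 alpha kinases and phosphatases, other ATF and CREB, other C/EBP and tribbles, AP-1 partners, ATF4 turnover and cofactors, and cell markers) and motifs were chosen with earlier results of these data known. Alternatives covered normalization, background, offset, detection, probe choice, fold, variance prior and each array left out. RefSeq promoter windows matched all 7 genes.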

Additional observations from a re-analysis of the deposited data

How the results depend on the processing

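No paired analysis was possible because each time has 1 array. Under median scaling, the authors' processed values, no background correction, an offset of 50, detection at 0.05, no filter on dim probes and the mean of a gene's probes, the counts past 2-fold among the 7 genes did not change. The log2 difference for 6 h minus 0 h ranged from 1.99 to 2.10 for DDIT3, 1.58 to 1.72 for ATF3, 0.81 to 0.83 for TRIB3, 0.81 to 0.85 for CEBPG, 0.75 under each for CEBPB, 0.26 to 0.31 for ATF4 and -0.17 to -0.14 for ATF5. At 1.5-fold in place of 2-fold the genes higher were 1 at 2 h, 2 at 4 h and 5 at 6 h against 0 h, 6 for 6 h minus 2 h and 3 for 6 h minus 4 h, and 1 was lower at 2 h. The count of the 7 with a rising trend was 2 under median scaling and 0 without the intensity trend, and ranged from 0 to 5 when 1 array was left out. Leaving out the 0 h array gave 2 (DDIT3 and CEBPB), where 6 of all 9771 genes were called rising and 5 falling. Without the 2 h array the count was 5, where 1236 of all genes were called rising and 1216 falling. Without the 4 h array it was 2 (DDIT3 and ATF3), where 31 were called rising and 16 falling. Without the 6 h array it was 0, where 0 were called in either direction. Without the 0 h array the slope of ATF5 turned to 0.1587 per hour (limma adjusted p = 1), and over the fits without 1 array it ranged from -0.1211 to 0.1587. These fits have 1 residual degree of freedom, and over all genes they called between 0 and 1236 rising.

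With median scaling, the median gene stood at 0.15 for 4 h minus 0 h, against 0.01 with quantile normalization. It gave 189 higher and 83 lower genes at 2 h (123 and 118 with quantile normalization), 66 and 14 at 4 h (20 and 39), 273 and 106 at 6 h (160 and 175), 14 and 14 for 4 h minus 2 h (9 and 24) and 17 and 10 for 6 h minus 2 h (14 and 13), with 17 rising and 5 falling trends (2 and 1). For 6 h minus 4 h it gave 7 and 3 (11 and 3). The authors' values and no background correction gave the same counts as each other, 88 and 75 at 2 h, 14 and 20 at 4 h, 115 and 106 at 6 h, 2 and 12 for 4 h minus 2 h, 9 and 10 for 6 h minus 2 h and 6 and 0 for 6 h minus 4 h. An offset of 50 gave 13 and 22 at 4 h, 4 and 13 for 4 h minus 2 h, 9 and 10 for 6 h minus 2 h and 7 and 0 for 6 h minus 4 h. Detection at 0.05 and no filter each gave 14 and 5 for 6 h minus 4 h. The cause of these changes was not tested.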

Other observations

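AP-1 proteins and small MAF proteins are bZIP factors that can pair with ATF3, ATF4 or C/EBP proteins. Of 12 listed AP-1 partner genes measured on both the 6 h and 0 h arrays, 7 were past 1.5-fold upward and 0 downward, against 9.44% and 9.8% of all genes, with a median log2 difference of 0.71. MAFG stood at 1.23, with a second probe at 1.39, and MAFF at 1.09, with other probes at 0.93 and -0.27. FOSL1 and FOS stood at 0.99 and 0.94. For 6 h minus 2 h the median was 0.22, with 3 genes past 1.5-fold, against 1.52% of all genes: FOSB at 1.01, FOS at 0.72 and MAFG at 0.60. FOSB had stood at -1.29 for 2 h minus 0 h. FOSL1, at -0.14 for 6 h minus 2 h, had stood at 1.14 for 2 h minus 0 h.

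Of 8 measured genes of ATF4 turnover and cofactors, EP300, the gene of an acetyltransferase that stabilizes ATF4, stood at 0.72 for 6 h minus 0 h and at 0.07 for 6 h minus 2 h. CREBBP stood at 0.56 for 6 h minus 0 h and BTRC, which encodes the ubiquitin ligase subunit that recognizes ATF4, at 0.40. AKT1 stood at 0.28 for 6 h minus 0 h, with a second probe at 0.006. For 6 h minus 2 h CREBBP stood at 0.30, COP1 at 0.27, with a second probe at 0.17, and SQSTM1 at 0.26. EP300 was the 1 gene of the 8 past 1.5-fold for 6 h minus 0 h, a share near the 9.44% of all genes, and 0 were past it for 6 h minus 2 h, against 1.52%. The trend fit called 0 genes of both lists.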
